A study of Homo sapiens with 4 samples.

Results

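The regions described here lay around the centromeres of the 22 human autosomes. For each autosome 1 centromere point was given in hg38 coordinates, and every deposited interval whose midpoint lay within 5 Mb of that point was a member. This window rule gave 1294 members of 19238 intervals in 4 Hi-C libraries, and 18095 of those intervals were on the autosomes. Members were 239 and 229 domains in shLUC replicates 1 and 2 and, for shHNRNPU, 230 and 205 domains in shHNRNPU replicates 1 and 2. They also included 22, 23, 27 and 10 boundary regions and 78, 76, 78 and 77 gaps in the same order of libraries. All other intervals of the autosomes are called the rest below.

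To ask how HNRNPU bears on chromosome folding, Hi-C was done in H1 cells, an established line of human pluripotent stem cells (hPSCs) grown in mTeSR1 on Matrigel. Both groups received a virus with a short hairpin RNA (shRNA) and puromycin selection, against HNRNPU in shHNRNPU (n = 2) and against luciferase in the control shLUC (n = 2). Nothing in the labels says that replicates came from separate cultures, so p-values measure only the spread between these libraries, which may be technical. The files hold positions of called intervals and no contact counts, so sequencing depth and the remaining level of HNRNPU are unknown here.

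A centromere is the site where the kinetochore assembles, and in humans it is built on long arrays of alpha satellite, a tandem repeat. The chromatin to either side, the pericentromere, is rich in repeats and constitutive heterochromatin and poor in genes. Reads from near-identical repeats are hard to place, and such sequence is often blank in interaction maps. Hi-C joins DNA ends that lie close together in the nucleus, and a domain is a stretch that contacts itself more than its neighbours. HNRNPU, also called SAF-A, is a nuclear protein that binds RNA and scaffold-attachment DNA and is a component of the nuclear matrix.

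Sequence upstream of 3 genes is shown because a domain border lay beside the start of each gene, and the libraries differed in where they had it. EPHA3 is an ephrin receptor, ISL1 a LIM-homeodomain transcription factor of heart and motor neuron progenitors, and CXCL12 a chemokine. The 120 bases before each start site are from RefSeq on GRCh38.p14, written 5′ to 3′ on the gene's strand with CG dinucleotides in capitals. EPHA3 is chr3:89107501-89107620 (+ strand), ISL1 is chr5:51383328-51383447 (+ strand) and CXCL12 is chr10:44385098-44385217 (− strand).
EPHA3: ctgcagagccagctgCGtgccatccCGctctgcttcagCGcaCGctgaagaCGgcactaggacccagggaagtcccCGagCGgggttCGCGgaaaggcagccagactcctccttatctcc
ISL1: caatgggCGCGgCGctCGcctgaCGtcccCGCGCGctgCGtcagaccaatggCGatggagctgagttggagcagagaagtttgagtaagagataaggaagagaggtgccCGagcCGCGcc
CXCL12: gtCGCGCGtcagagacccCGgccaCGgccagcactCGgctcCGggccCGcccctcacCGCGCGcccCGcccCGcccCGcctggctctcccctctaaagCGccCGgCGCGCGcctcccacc
These stretches held 9, 13 and 19 CG dinucleotides. The median was 6 over 26246 RefSeq promoters of the autosomes, taken at 1 start a gene. It was 4.5 over the 1098 promoters whose start lay in the windows. In longer promoters of 300 bases, EPHA3, ISL1 and CXCL12 held 17, 36 and 39. Listed genes with no border within 40 kb of the start in any library held 3 (DNMT3B) to 45 (DST). PDGFRA and FGF10, with such a border in 2 libraries and 1 library, held 8 and 13. Whether the number of CG dinucleotides goes with borders was not tested.

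The coordinates were checked first. The last interval of each of the 24 chromosomes ended within 2.09 bins of 40 kb of the hg38 length, whereas hg19 lengths were off by up to 70.3 bins and 2 of 24 came within 3 bins. The submitters' processing notes also name hg38. The point lay in the longest stretch without a protein-coding gene on 19 of the 22 chromosomes, and these stretches measured 2.76 to 22.4 Mb over the 22 chromosomes. Over the autosomes, shHNRNPU replicate 2 stood apart from the other libraries, with 3261 domains against 3730 to 3789.

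In all 4 libraries the centromere point lay inside a called domain on 21 of 22 chromosomes. The exception was chromosome 10, where a gap at chr10:39640001-39920000 held the point in every library. The domains that held the points had a median length of 2.32 Mb in shLUC replicates 1 and 2 and shHNRNPU replicate 2, and of 2.28 Mb in shHNRNPU replicate 1. In each library 14 of the 21 were 2 Mb or longer. They were the longest domain of their chromosome in 6, 6, 6 and 4 cases, and between 15 and 17 of them held no protein-coding gene.

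**Figure D1:**
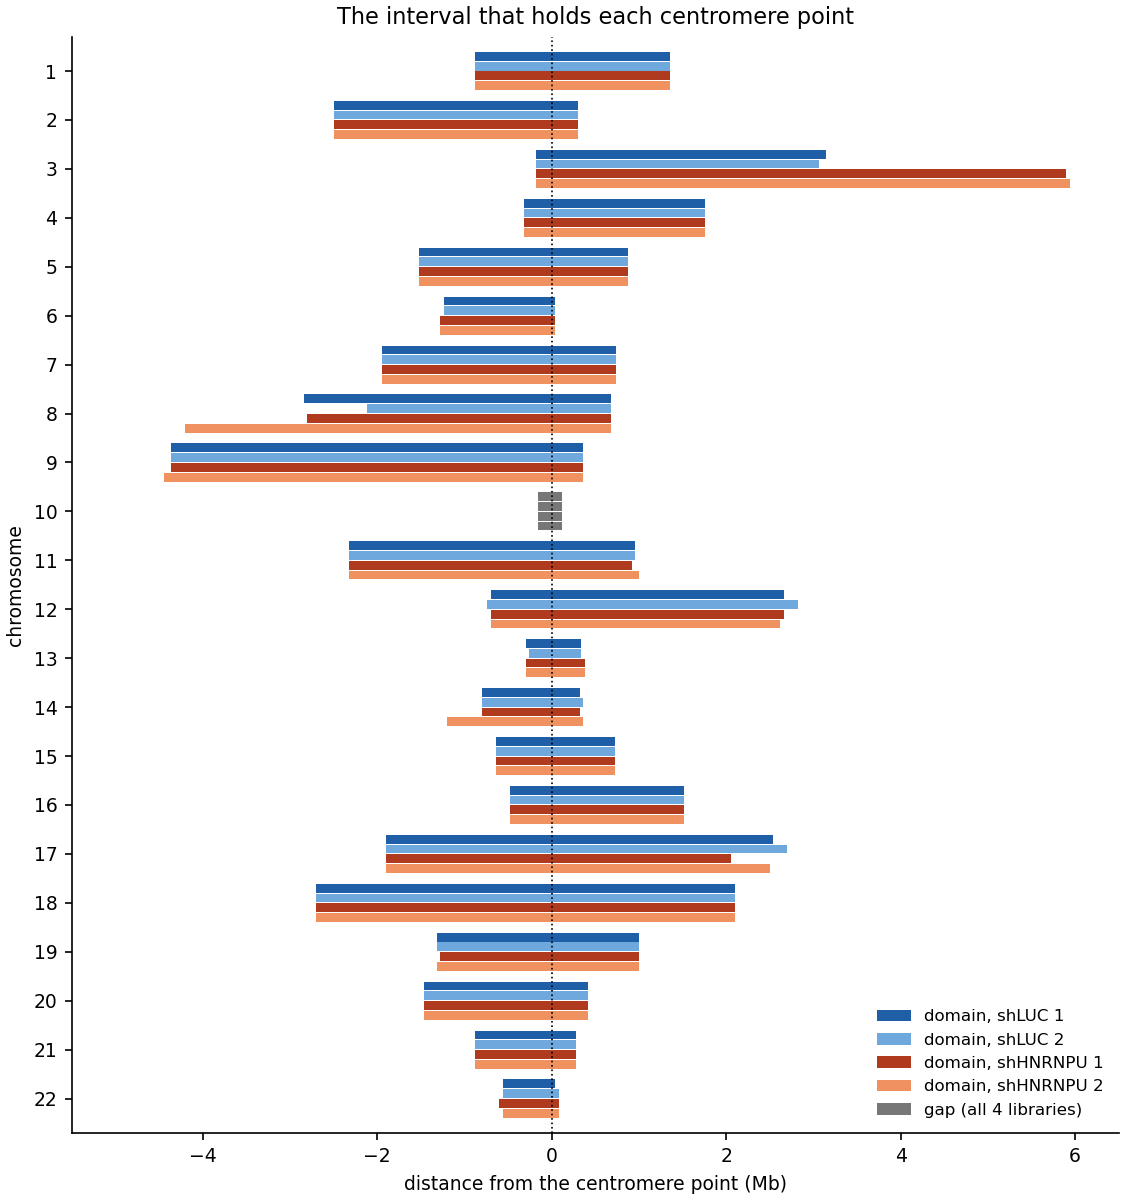
The interval holding the centromere point on each autosome, drawn as distance from the point in Mb, with 1 bar a library and the gap on chromosome 10 in grey. Bars coincide in the 4 libraries on most chromosomes, and the plot shows the longer shHNRNPU bars on chromosome 3.

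Both ends of the domain at the point fell in the same bin in all 4 libraries on 10 chromosomes and within 1 bin on 14. The 10 domains with identical ends were chr1:122520001-124760000, chr2:91400001-94200000, chr4:49680001-51760000, chr5:47280001-49680000, chr7:58160001-60840000, chr15:18360001-19720000, chr16:36320001-38320000, chr18:15800001-20600000, chr20:26640001-28520000 and chr21:11120001-12280000. The chromosome 18 domain, 4.8 Mb long, was the longest member domain of both shLUC libraries and held no RefSeq gene. Its nearest gap lay 18.9 Mb from the point in every library. Chromosomes 13 and 22 had the shortest domains at the point, 0.6 to 0.68 Mb on both.

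An end of the domain at the point differed by more than 1 bin on 7 chromosomes. On chromosome 3 the domain began at 90720001 in every library, and it ended at 94040000 and 93960000 in the shLUC libraries (replicates 1 and 2) and at 96800000 and 96840000 in the shHNRNPU libraries. The groups therefore did not overlap at this end. Among the 42 ends of domains at the points this also held for ends on chromosomes 17, 6 and 13, given below. The share over all autosomal borders was not counted. The resulting domains of 3.32, 3.24, 6.08 and 6.12 Mb were the longest of chromosome 3 in each library, and the last pair were the longest member domains of the shHNRNPU libraries.

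On chromosome 17 the groups did not overlap either. The domain began at 23200001 in every library and ended at 27640000 and 27800000 in shLUC (replicates 1 and 2) and earlier, at 27160000 and 27600000, in shHNRNPU, with 1 bin between the nearest ends of the groups. On the other 5 of these chromosomes the differing end did not separate the groups. On chromosome 8 the domain ended at 45880000 in every library and began at 42360001, 43080001, 42400001 and 41000001 in shLUC replicates 1 and 2 and shHNRNPU replicates 1 and 2. On chromosome 14 shHNRNPU replicate 2 alone began at 16000001, against 16400001 in the other 3 libraries. The ends on chromosome 12 spanned up to 5 bins, and those on chromosomes 9 and 11 spanned 2 bins. Shifts of 1 bin, the width of the matching distance, separated the groups on chromosome 6, where the start lay earlier in both shHNRNPU libraries (58520001 against 58560001), and on chromosome 13, where the end lay later in both (18080000 against 18040000). The share of all autosomal borders that separate the groups in this way was not counted. The ends on chromosomes 3, 17, 6 and 13 have no such background and no test.

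The length of domains was then compared with the rest. The median length was taken on each chromosome and averaged over the 22 chromosomes. In the windows of shLUC replicates 1 and 2 it was 654 and 707 kb, and shHNRNPU replicates 1 and 2 had 775 and 816 kb. On the rest it was 572, 569, 583 and 753 kb. Every library thus had the longer value in the windows, by 119 ± 58.5 kb (SD, n = 4; exact sign-flip permutation test, two-sided, p = 0.125). This p is the smallest that 4 libraries allow, so no comparison of windows with rest could pass 0.05.

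The pooled lengths depended on the domains at the points. When all autosomal domains were pooled, the medians were 560, 600, 600 and 640 kb in the windows and 560, 560, 600 and 640 kb on the rest. The mean lengths were 805, 823, 817 and 905 kb in the windows against 693, 694, 706 and 820 kb. After the domains that held the points were left out, the pooled window means were 644, 658, 639 and 700 kb, below the rest in every library by 35.9 to 120 kb. This step was added after seeing the data and removes domains from the windows only. With mean lengths averaged over chromosomes it gave −25.1 kb (exact sign-flip permutation p = 0.875). With the domains at the points kept, the difference in median length averaged over chromosomes was 367 kb when windows reached 3 Mb to either side. With 10 Mb it was −13.2 kb. It was 35 kb without chromosomes 1, 9 and 16 (exact sign-flip permutation p = 0.25).

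The windows held more of both the longest and the shortest domains. Domains of 2 Mb or more made up 9.21% and 9.61% of window domains in the shLUC libraries (replicates 1 and 2), and 7.83% and 12.7% in the shHNRNPU libraries, against 2.48%, 2.67%, 2.57% and 5.82% of the rest. The windows were higher by 6.44 ± 0.798 percentage points (SD, n = 4; exact sign-flip permutation p = 0.125). The excess was 0.602 points once the domains at the points were left out, a setting added after seeing the data. These long domains held 29.3% to 40.5% of the domain sequence of the windows and 9.77% to 20.4% of that of the rest.

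At the other end of the range, domains of 200 kb or less made up 18.4%, 16.6%, 18.3% and 19.5% of window domains and 8.54%, 9.41%, 8.17% and 9.29% of the rest. This excess of 9.34 ± 1.45 percentage points (SD, n = 4; exact sign-flip permutation p = 0.125) was present in all 4 libraries. It was −0.46 points among domains that touched no gap of any library, so the surplus of short domains lay beside gaps.

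**Figure D2:**
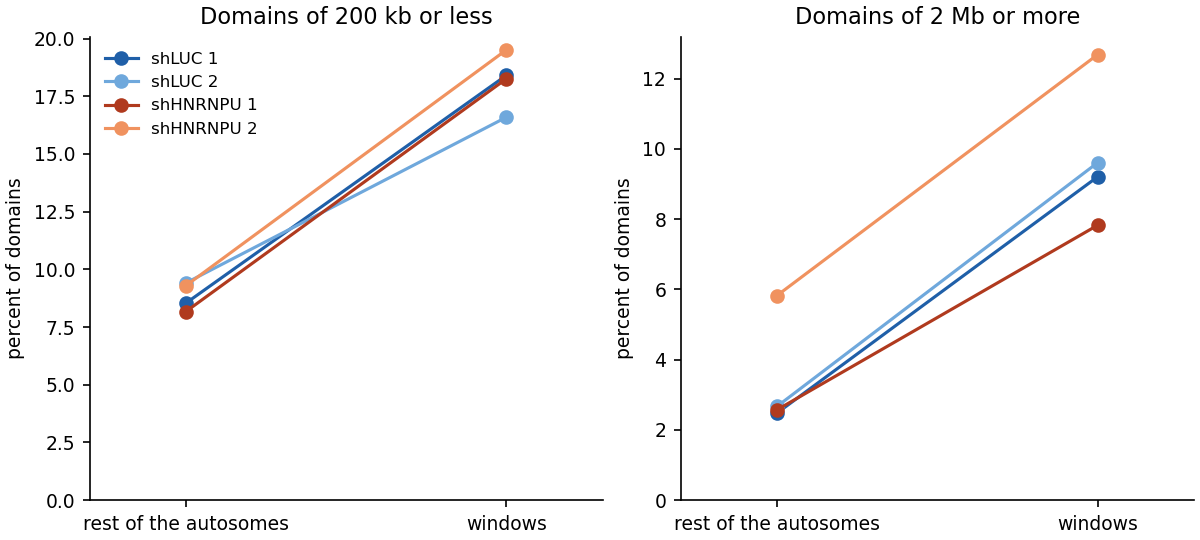
Percent of domains of 200 kb or less (left) and of 2 Mb or more (right) on the rest of the autosomes and in the windows, with 1 line a library. All 8 lines are higher in the windows, at least 16.6% against at most 9.41% for short domains and at least 7.83% against at most 5.82% for long ones.

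The chromosomes differed widely. The median was longer in the window in all 4 libraries on 7 chromosomes and shorter in all 4 on 2. In shHNRNPU replicate 2 it was longer on 10 and shorter on 12. Chromosomes 9, 8 and 18 had the highest mean difference, of 1750, 660 and 495 kb over the 4 libraries. Few domains lay behind these values, since the window of chromosome 9 held 4, 3, 2 and 3 domains in shLUC replicates 1 and 2 and shHNRNPU replicates 1 and 2. On chromosome 8 the library differences were 240, 40, 120 and 2240 kb in that order, and the highest of them came from shHNRNPU replicate 2 with 3 window domains. On chromosome 18 they were 440, 720, 100 and 720 kb.

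The lowest mean differences were on chromosomes 19, 22 and 12, at −440, −345 and −215 kb. On chromosome 19 the sign was set by shHNRNPU replicate 2, at −1900 kb against −40, 120 and 60 kb. On chromosome 22 all 4 libraries were below 0, at −260, −120, −80 and −920 kb, and the same library had the lowest value. In that library the rest of chromosome 19 had a median of 2380 kb, against 600 to 640 kb in the other 3 libraries, and the rest of chromosome 22 had 1240 kb, against 520 to 580 kb. The windows of the same library, at 480 and 320 kb, were not longer than those of the others. Without chromosomes 19 and 22 the mean difference over chromosomes was 170 ± 51.9 kb (SD, n = 4; exact sign-flip permutation p = 0.125), and all 4 libraries lay between 105 and 213 kb. This setting was added after seeing the data and leaves out the chromosomes with the lowest values of this same difference.

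**Figure D3:**
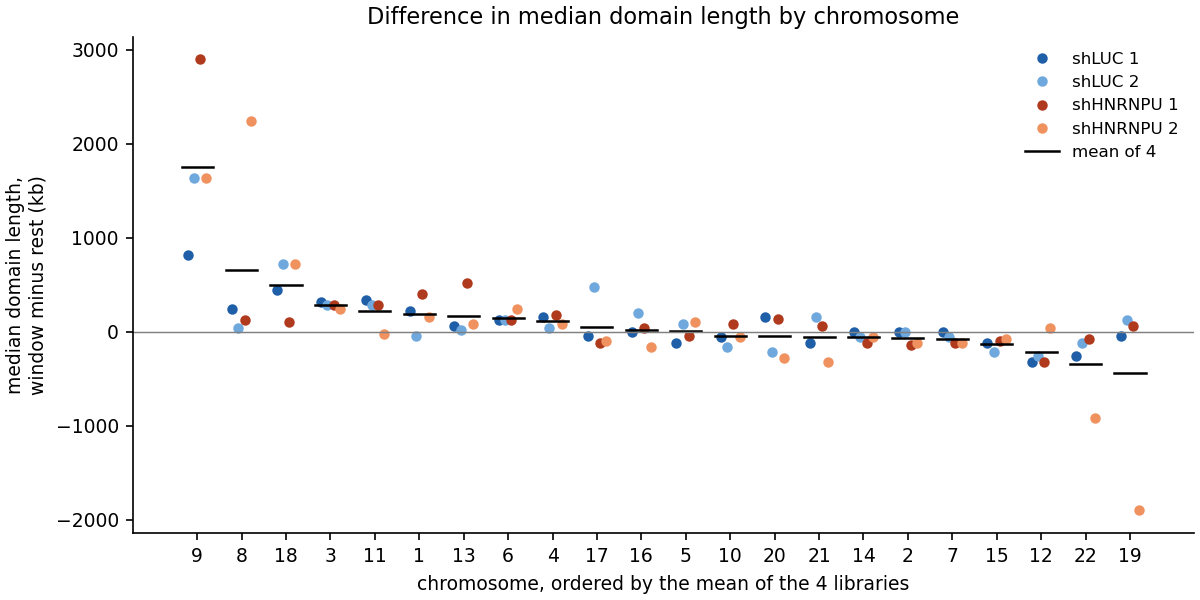
Median domain length in the window minus that on the rest of the chromosome in kb, with 1 point a library and a line at the mean of the 4. The points lie above 0 for chromosomes 9, 8 and 18 and spread most on chromosomes 9, 8, 19 and 22.

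Between the groups, the median length in the windows was 680 ± 37.9 kb in shLUC and 796 ± 28.9 kb in shHNRNPU (SD, n = 2 each). The shHNRNPU libraries were longer by 115 kb and the groups did not overlap (exact permutation test, two-sided, p = 0.333, the smallest that 2 libraries against 2 allow). The groups overlapped with windows of 3 Mb to either side (72.3 kb), with 10 Mb (26.4 kb), without chromosomes 1, 9 and 16 (67.4 kb) and with autosomes pooled (40 kb), where the exact permutation p was 0.667 to 1. The rest was also longer in shHNRNPU, by 97.3 kb, and the groups did not overlap there either (exact permutation p = 0.333). Its values were 572 and 569 kb in shLUC replicates 1 and 2, and 583 and 753 kb in shHNRNPU replicates 1 and 2. The difference between groups in windows minus rest was 18.2 kb (110 ± 39.9 against 128 ± 91.3 kb, SD, n = 2 each; exact permutation p = 1), and leaving out shHNRNPU replicate 2 gave 82.7 kb, whereas leaving out shHNRNPU replicate 1 gave −46.4 kb. Without chromosomes 19 and 22 it was 83.5 kb, from 105 and 152 kb in shLUC and 213 and 211 kb in shHNRNPU. This setting was added after seeing the data and drops the lowest chromosome values of shHNRNPU replicate 2. Among domains that touched no gap the group difference was 119 kb (exact permutation p = 0.333 for both settings). The groups did not overlap under these settings, whereas the sign was negative under others.

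Gaps are intervals that the deposited files set apart from domains and boundary regions, and what defines them is not given in the sources used here. The nearest gap lay within 5 Mb of the point in all 4 libraries on 20 of 22 chromosomes, and it was the same interval in all 4 on 15. On chromosomes 3 and 18 the nearest gaps were 7.34 and 18.9 Mb away. On chromosomes 2, 4, 6, 7, 8, 15, 16, 19 and 21 the same gap lay 0.04 to 1 Mb from the point in every library, and on chromosomes 20, 9 and 17 it lay 1.66, 2.52 and 3.06 Mb away. On chromosomes 1, 5, 11, 12, 13, 14 and 22 the libraries differed in which gap was nearest, or in its ends, at distances from 0.04 to 1.8 Mb.

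Members that were gaps were short, with a median of 40 kb (1 bin) and a longest of 0.96 Mb in every library. By length, gap members took up 3.94% and 4.02% of the windows of shLUC replicates 1 and 2, while shHNRNPU replicates 1 and 2 had 4.31% and 4.58%, as means over chromosomes, against 6.11%, 6.13%, 5.98% and 5.92% of the rest. The windows were lower by 1.82 ± 0.391 percentage points (mean of 4 libraries ± SD; exact sign-flip permutation p = 0.125). This order depended on the midpoint rule, which left out 7 or 8 long gaps a library that reached into the windows with 19.78 to 19.98 Mb.

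The longest of these was chr1:125200001-143160000. Others covered the start of chromosomes 13, 14, 15 and 22 up to 16000000, 16000000, 17000000 and 10520000, or lay at chr9:45520001-60520000 and chr16:38320001-46360000. Each of these 7 was identical in the 4 libraries. When intervals were cut at the window edge, gaps made up 12.6% to 12.8% of the windows and 5.23% to 5.36% of the rest, a difference of 7.38 percentage points in the opposite direction (exact sign-flip permutation p = 0.125). Without the 5 acrocentric chromosomes the midpoint rule also gave the higher value in the windows, by 0.775 points.

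The groups had like numbers of gaps in the windows, 77 ± 1.41 in shLUC and 77.5 ± 0.707 in shHNRNPU (SD, n = 2 each; exact permutation p = 1). On the rest there were 250.5 ± 10.6 and 201.5 ± 13.4 (exact permutation p = 0.333). The gap members of the windows summed to 7.84 ± 0.0566 Mb in shLUC and 8.3 ± 0.0283 Mb in shHNRNPU, a difference of 0.46 Mb without overlap of the groups (exact permutation p = 0.333). On the rest the groups did not overlap either, in the other direction. Gaps there summed to 123.32 ± 0.509 Mb in shLUC and 119.92 ± 0.453 Mb in shHNRNPU (exact permutation p = 0.333). By percent of the window the shHNRNPU libraries were higher by 0.468 points (exact permutation p = 0.333). On chromosome 16 a total of 4 bins were gap in both shHNRNPU libraries and in neither shLUC library. All windows together had 9 such bins, 1.22% of the window bins that were gap in any library, against 0.675% on the rest.

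Gap positions were also compared bin by bin. Bins were assigned by their own position, so parts of long gaps that the midpoint rule left out were counted here. Gaps by bin took up 27.68 to 28.12 Mb of the windows, and such long gaps reached in with 19.78 to 19.98 Mb. Of 737 bins that were gap in any library within the windows, 90.2% were gap in all 4, against 83.4% of 2816 bins on the rest. Long gaps identical in the 4 libraries add to the 90.2%, and the share without them was not counted. In the windows 7 bins (0.95%) were gap in both shLUC libraries and neither shHNRNPU library, against 55 (1.95%) on the rest. The other way round there were 9 (1.22%) in the windows and 19 (0.675%) on the rest. These shares carry no test, since neighbouring bins of 1 gap are not independent.

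Boundary regions, the stretches between domains that were called neither domain nor gap, took up less of the windows. They made up 1.47%, 1.82%, 1.99% and 0.636% of domain plus boundary sequence in the windows of shLUC replicates 1 and 2 and shHNRNPU replicates 1 and 2, and 3.45%, 3.3%, 3.33% and 2.02% on the rest. The windows were lower in all 4 libraries, by 1.55 ± 0.298 percentage points (mean ± SD; exact sign-flip permutation p = 0.125). The 10 boundary members of shHNRNPU replicate 2 were the fewest of any library.

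Next, the positions of borders, the starts and ends of domains, were compared between libraries, with a match allowed within 1 bin. Between the shLUC replicates 78.8% of window borders were shared, against 68.0% on the rest. Between the shHNRNPU replicates these were 76.7% and 60.6%. The windows were higher by 10.9 and 16.1 percentage points, a mean of 13.5 (exact sign-flip permutation test over the 2 pairs, p = 0.5, the smallest it allows). The 4 pairs across groups, which use the same libraries again, shared 73.2% to 78.1% in the windows and 60.1% to 67.5% on the rest. With a match only in the same bin, replicates shared 62.1% and 61.9% of window borders against 39.99% and 34.5%.

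A large part of this lay beside gaps. Between 50.3% and 56.0% of window borders were within 3 bins (120 kb) of a gap of any library, against 10.3% to 12.6% on the rest. Among borders farther from gaps the replicates shared 69.4% in the windows and 67.3% on the rest in shLUC, and 61.9% and 59.9% in shHNRNPU, a mean difference of 2.09 percentage points. Of the pairs across groups, 1 was higher and 3 were lower in the windows away from gaps.

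**Figure D4:**
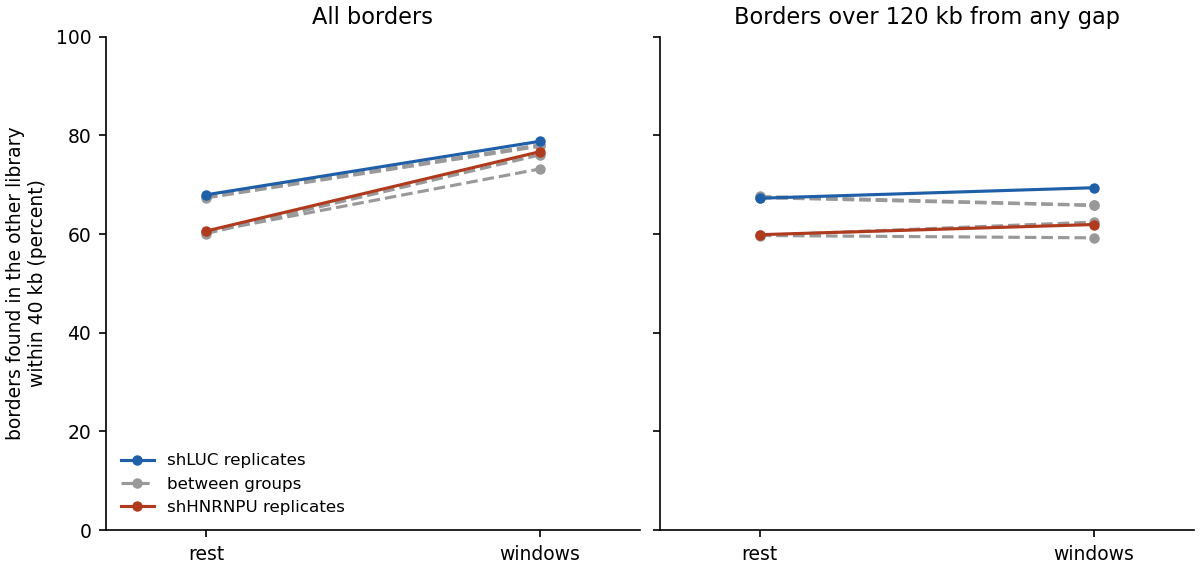
Percent of borders of 1 library found within 40 kb in the other, mean of both directions, on the rest and in the windows, for all borders (left) and those over 120 kb from any gap (right). Each line is a pair of libraries, coloured for replicate pairs and grey for pairs across groups. Windows minus rest is 10.5 to 16.1 percentage points on the left and −1.76 to 2.7 points on the right.

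The ends of the domains that held the points were shared more widely than other borders. Of these 42 ends, 36, 37, 36 and 39 had a match in all 3 other libraries, counted from shLUC replicates 1 and 2 and shHNRNPU replicates 1 and 2. Away from gaps the shares were 17 of 23 in shLUC replicate 1 (73.9%, 95% Wilson interval 53.5% to 87.5%), 18 of 23 in shLUC replicate 2 (78.3%, 58.1% to 90.3%), 18 of 23 in shHNRNPU replicate 1 (78.3%, 58.1% to 90.3%) and 19 of 22 in shHNRNPU replicate 2 (86.4%, 66.7% to 95.3%). On the rest, 39.0%, 39.0%, 39.1% and 44.4% of borders away from gaps were found in all other libraries. The intervals cover counting error only, and the 2 ends of a domain are not independent.

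Over distance from the point, border density was lowest in the first Mb and highest between 2 and 3 Mb. In the first Mb there were 1.2, 1.23, 1.25 and 1.11 borders per Mb of domain and boundary sequence in shLUC replicates 1 and 2 and shHNRNPU replicates 1 and 2. Between 2 and 3 Mb there were 2.26, 2.16, 2.37 and 1.96, and beyond 10 Mb there were 1.7, 1.7, 1.64 and 1.45. The share of borders found in all 4 libraries was 79.2% to 89.4% in the first Mb and 36.2% to 54.3% between 4 and 5 Mb. The share within 3 bins of a gap was also lower farther out, at 67.9% to 72.3% and 19.3% to 37.0% for the same distances, and its part in the sharing at each distance was not tested.

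**Figure D5:**
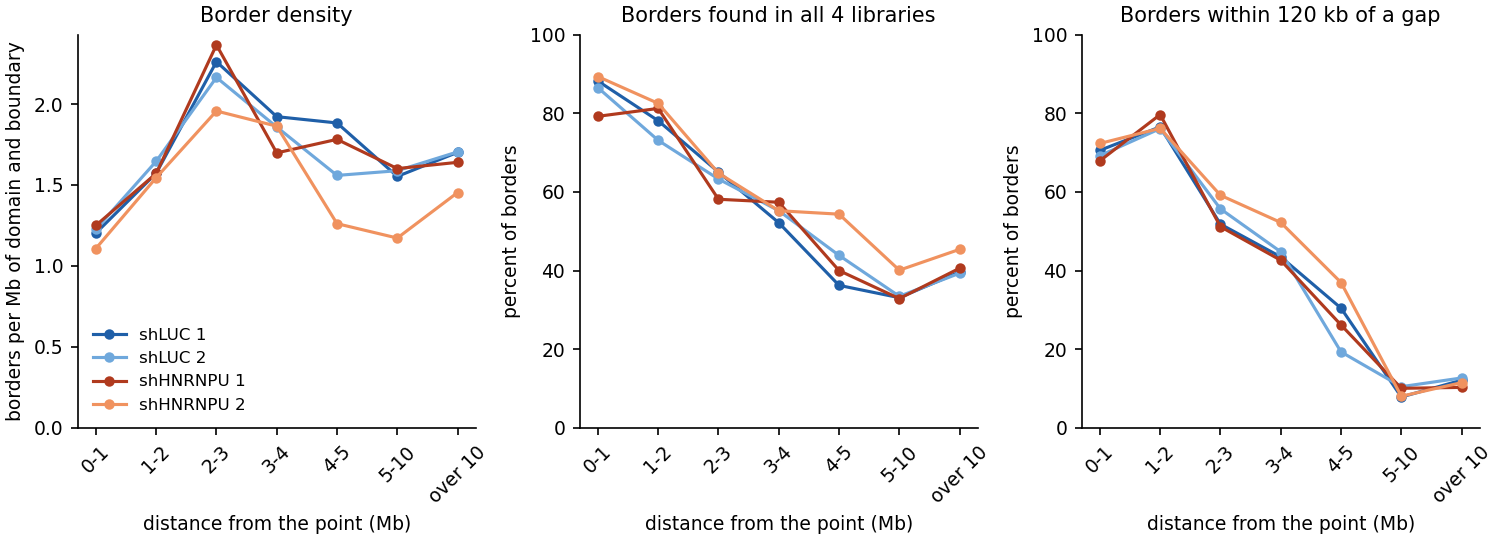
Borders per Mb (left), percent of borders found in all 4 libraries (middle) and percent within 120 kb of a gap (right) by distance from the centromere point in Mb, with 1 line a library. Density peaks at 2 to 3 Mb in every library, while sharing is at least 79.2% in the first Mb and at most 54.3% at 4 to 5 Mb.

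Borders present in both shLUC libraries, with none within 3 bins in either shHNRNPU library, were termed lost, and the reverse case gained. Over the autosomes 5.94% of the 3146 borders shared by shLUC were lost and 2.85% of the 2565 shared by shHNRNPU were gained. In the windows 10 of 277 shared borders were lost (3.61%, 95% Wilson interval 1.97% to 6.52%) and 9 of 250 were gained (3.6%, 1.91% to 6.7%). The lost share was below the background and the gained share above it, and both background values fall inside these intervals. The intervals cover counting error only, and neighbouring borders are not independent. Of the 10 lost borders 7 were away from gaps, as were 5 of the 9 gained ones, and no single border has a test of its own.

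Of the lost borders away from gaps, the farthest from any shHNRNPU border was on chromosome 17, at 19880000 and 19840000 in shLUC replicates 1 and 2. It bounded a member domain, lay at −5.22 Mb from the point and was 600 kb from the nearest shHNRNPU border. It was 12.1 kb from the start of ULK2, an autophagy kinase gene named after its values were seen, and lay within domains of 2.6 and 2.84 Mb in shHNRNPU replicates 1 and 2. On chromosome 8 a border at 47240000 in both shLUC libraries was 520 kb from the nearest in shHNRNPU. A second one on chromosome 17, at 29120000 and 29160000, was 440 kb from the nearest, and the domains across it ended at 29600000 in both shHNRNPU libraries.

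Gained borders included one on chromosome 11 at 49120000, 960 kb from any shLUC border, within shLUC domains of 3.64 and 2.12 Mb. On chromosome 6 a border at 61720000 was 680 kb from any in shLUC. It began a domain of 1120 kb up to 62840000 in both shHNRNPU libraries, which held the start of KHDRBS2, an RNA-binding protein gene. In shLUC that start lay in domains of 1800 and 2640 kb with the same end. On chromosome 10 a border at 38920000, at −0.88 Mb from the point, was 640 kb from any in shLUC.

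Of 18 listed genes, 15 matched a RefSeq start site, and all of these lay in the windows. At 3 starts the libraries are described in full, since the upstream sequence printed above belongs to them. The EPHA3 start was within 1 bin of a border in every library, at 89120000 in shLUC replicate 1 and shHNRNPU replicate 2 and at 89080000 in the other pair, so neither position followed the groups. The ISL1 start lay 16.6 kb from a border at 51400000 in shLUC replicates 1 and 2 and shHNRNPU replicate 1. In shHNRNPU replicate 2 it lay inside a domain of 1720 kb, 423 kb from the nearest border.

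CXCL12 started 14.9 kb from a border at 44400000 in both shHNRNPU libraries. This was one of the 9 gained borders, and it was named for that gene after its values were seen. In shLUC replicates 1 and 2 the nearest borders were 575 and 535 kb away, and CXCL12 lay inside domains of 1480 and 1440 kb that both began at 43480001. In shHNRNPU the domains up to the border were 800 and 2360 kb long.

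PDGFRA, a receptor tyrosine kinase, started 10.7 kb from a border at 54240000 in both shHNRNPU libraries and 50.7 kb from one at 54280000 in both shLUC libraries, a shift of 1 bin. Its neighbour KIT, the stem cell factor receptor, lay in the next domain up to 54960000 in every library, of 680 kb in shLUC and 720 kb in shHNRNPU. GATA6, an endoderm transcription factor, lay in domains of 840 to 920 kb in the 4 libraries. DNMT3B, a de novo DNA methyltransferase of pluripotent cells, lay in domains of 1400 and 680 kb in shLUC (replicates 1 and 2) and of 720 and 2240 kb in shHNRNPU replicates 1 and 2, so the groups overlapped.

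The other listed genes had no border within 1 bin in any library, except FGF10, a fibroblast growth factor, whose start was 10.6 kb from a border in shLUC replicate 1. ROCK1 lay in a domain that began at 20600000, where the point domain of chromosome 18 ended, in every library. NOTCH2, a Notch receptor, lay in domains of 1200 to 1760 kb. The 300-base promoters of the 15 matched genes, 250 bases before and 50 after the start, held no HindIII site (AAGCTT, the same letters on both strands), which 5.84% of the 26246 promoters held.

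In all 4 libraries a smaller share of borders lay beside gene starts in the windows than on the rest. In shLUC replicates 1 and 2 and shHNRNPU replicates 1 and 2, 23.6%, 22.2%, 24% and 18.4% of window borders were within 1 bin of a protein-coding start site, against 44.9%, 44.5%, 43.5% and 40.1% on the rest. The windows were lower by 21.2 ± 1.18 percentage points (mean ± SD, n = 4; exact sign-flip permutation p = 0.125), and by 7.6 points among borders away from gaps. Start sites were also sparser, with 2.65 per Mb in the windows (583 sites in 220 Mb) and 5.47 per Mb on the rest, and only 7 sites lay in the first Mb from a point. How much of the difference goes with this density was not tested.

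The gene content of the windows differed by family. Zinc finger genes named ZNF, many of which encode repressors of transposable elements, had 45 of 398 starts in the windows (11.3%), and olfactory receptor genes had 74 of 313 (23.6%), where all protein-coding genes had 3.86%. The ZNF starts included 17 on chromosome 19, 13 on chromosome 7 and 6 on chromosome 10. The olfactory receptor starts included 54 on chromosome 11 and all 16 of chromosome 14. The length of the domain holding each start was taken, so a domain counts once per start. Its median over ZNF starts in the windows was 1480 and 2560 kb in shLUC replicates 1 and 2. In shHNRNPU replicates 1 and 2 it was 1200 and 1700 kb. On the rest it was 1120, 1080, 940 and 3400 kb in the same order, longer than in the windows only in shHNRNPU replicate 2. Over olfactory receptor starts it was 960, 920, 880 and 2280 kb in the windows and 560, 800, 520 and 1160 kb on the rest. The groups overlapped in the windows for both families. Members of such families lie in clusters, so starts in 1 domain are not independent.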

How the data were processed

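The authors deposited 3 interval files per library, holding positions of domains, boundary regions and gaps in bins of 40 kb, and no measured value such as a contact count, intensity or p-value. The submitters' processing notes name Bowtie2 and hg38; the caller, normalisation and definition of gaps are not given in the sources used here. In each library the intervals covered every autosome with an overlap of 0 bp, once gaps of zero length were left out. The libraries had 17, 17, 16 and 14 such gaps on the autosomes (shLUC replicates 1 and 2, shHNRNPU replicates 1 and 2). They are included in the gap numbers, with 1 in the windows of shHNRNPU replicate 1. Calls near repeats depend on how reads there were placed.

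Groups and replicate numbers came from the titles. Rows were assigned to windows by midpoint, and lengths, shares of sequence and border matches were computed per library with Python 3.11.15, numpy 2.4.6 and scipy 1.17.1. Exact sign-flip and label permutation tests were two-sided. Start sites were from RefSeq promoters, the most upstream listed per gene (15101 of 19126 protein-coding genes). Reference sequence was used for RefSeq promoters only, so HindIII sites and base composition of the intervals were not analysed here.

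The members, gene lists and measures were chosen with earlier results of these data known. Regions named were the domain and nearest gap at each point, the longest member domain of each library, the 3 chromosomes with the highest and the 3 with the lowest length difference, the 3 lost and 3 gained borders farthest from the other group, and 18 listed genes, 1 of which is not reported here. Alternatives covered the window size, chromosomes used, gaps, matching distances, each library left out in turn and a replicate block.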

Additional observations from a re-analysis of the deposited data

How the results depend on the processing

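With 4 libraries no test could pass 0.05, so p-values do not show stability, and unknown depth limits all comparisons of domain number and length. The difference in domain length between windows and rest (119 kb) was 367 kb with windows of 3 Mb to either side, 35 kb without chromosomes 1, 9 and 16, −13.2 kb with 10 Mb and −25.1 kb as a mean length without the domain at the point. With the latter, added after seeing the data, the long domains at the points are removed by construction. The difference between groups in window length (115 kb) was 26.4 to 198 kb over all its alternatives. The difference between groups in windows minus rest (18.2 kb) was 119 kb among domains that touched no gap, 83.5 kb without chromosomes 19 and 22, −73.6 kb with 10 Mb, −35.3 kb without chromosomes 1, 9 and 16, −20 kb with autosomes pooled and −50.9 kb without the domain at the point. Leaving out chromosomes 19 and 22, like leaving out the domain at the point, was added after seeing the data. Gap share in windows minus rest (−1.82 percentage points) was 9.92 with 10 Mb, 0.775 without acrocentric chromosomes and 7.38 with intervals cut at the window edge. The share of short domains, whose alternatives were all added after seeing the data, was −0.46 points among domains that touched no gap. Other causes of these changes were not tested.

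Lost borders (10) numbered 5 with 3 Mb, 20 with 10 Mb and 6 with absence within 5 bins, and gained borders (9) numbered 5 with 3 Mb and 5 away from gaps. Each setting changes how many borders can be called.

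With each library left out in turn, the differences ranged as follows. Domain length in windows minus rest was 94.5 to 138 kb, and domain length in windows between groups was 88.6 to 142 kb. The group difference in windows minus rest was −46.4 to 82.7 kb, −46.4 kb without shHNRNPU replicate 1, −10 kb without shLUC replicate 1, 46.4 kb without shLUC replicate 2 and 82.7 kb without shHNRNPU replicate 2. Gap share in windows minus rest was −1.98 to −1.71 and between groups 0.337 to 0.6 points. Boundary share was −1.62 to −1.4, border sharing 10.9 to 16.1, long domains 6.28 to 6.84, short domains 9.05 to 10.1 and borders at start sites −21.8 to −20.8 points. Lost borders numbered 16 (without shHNRNPU replicate 2) to 37 (without shHNRNPU replicate 1), with 30 and 36 without shLUC replicates 1 and 2. Gained borders numbered 15 and 20 without shLUC replicates 1 and 2, and 24 and 30 without shHNRNPU replicates 1 and 2. Fewer libraries then had to share or lack a border.

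Pairing libraries by number (replicate block) cannot move a mean difference, so it gave 115 kb in window length, 18.2 kb in windows minus rest and 0.468 points of gap, with exact sign-flip p-values of 0.5, 1 and 0.5. Same-numbered libraries deviated with correlations of −0.131 for domain number, −0.38 for median length and 0.36 for gap length over 22 chromosomes. A crossed pairing, added after seeing the data, gave the same mean differences. With 2 pairs no exact sign-flip p could fall below 0.5.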
